A study of Caenorhabditis elegans with 8 samples.

Results

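This account covers the response of wild-type Caenorhabditis elegans to bacterial food that lacks hns, gene by gene. It takes every gene with at least 1 FPKM (sequenced fragments relative to transcript length and library total) in at least 2 of the 4 wild-type libraries, which left 13866 of the 41560 rows of the table. Whole young adults of strain N2, the Bristol wild type, were kept at 20 °C on nematode growth medium with Escherichia coli BW25113 or with BW25113 from which hns was knocked out. A parallel pair of groups, daf-16(mgDf50) mutants on the same 2 foods, served here as a second set of libraries for the same change of food, with 2 libraries in each of the 4 groups. No label names separate cultures for libraries of 1 group, so the p-values rest on a spread between libraries that may be only technical.

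H-NS, the product of hns, is a DNA-binding protein that silences many bacterial genes. The worm eats these bacteria, and it cannot make heme, so its heme comes from the food. Heme enters and leaves intestinal cells through dedicated transporters, and a small secreted carrier passes it on to other tissues and to embryos. Transcripts of several of these proteins are known to rise when heme is scarce. DAF-16 is the FOXO transcription factor downstream of insulin-like signalling.

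The wild-type libraries reached 1 FPKM in 13191 to 14099 genes. The daf-16 transcript stood at 69.9 to 77.4 FPKM in the wild-type libraries and was lower, at 15.8 to 19.2 FPKM, in those of the mutant. Replicates correlated at Pearson's r of 0.974 to 0.981 across genes, which are not independent replicates. In a principal component analysis of the wild-type libraries the first component held 50.3% of the variance. It placed BW25113 replicates 1 and 2 at -21.4 and -38.5 and hns replicates 1 and 2 at 42.4 and 17.5. The foods were thus separated, but replicates of each food also lay apart. The second component, with 29.5% of the variance, placed replicate 1 at 30.1 on BW25113 food and 15.8 on hns food. Replicate 2 stood at -13.8 and -32.1 in the same order, so that component separated the replicate numbers within both foods.

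Diet changed 171 of the 13866 genes in wild type, 1.23% of those tested, at an adjusted p under 0.05 (limma-trend on log2(FPKM + 1), Benjamini-Hochberg). Of these, 133 were higher on hns food (0.959% of genes) and 38 were lower (0.274%). After quantile normalization 111 genes passed, 72 of them higher, so the excess of higher genes was smaller on that scale. The count depended on each library: leaving out any 1 wild-type library gave 36 to 47 genes, fitting the wild-type libraries alone gave 72, and a replicate block gave 622. The median change over all genes was -0.01 on the log2 scale. Before adjustment, 2261 genes had p under 0.05. All 171 had groups that did not overlap, but with 2 libraries a group that is common: in 25.5% of all genes both hns libraries lay above both BW25113 libraries, and in 30.0% both lay below. A further limit is that 17 of the 171 (9 higher, 8 lower) were listed at 0 in a whole wild-type group, where an exact 0 may be a failed estimate. The other 154, 124 higher and 30 lower, carry the description that follows.

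The filter on low values bears on these counts, since without it 60 genes passed, 31 of them higher. All 4 wild-type libraries reached 1 FPKM in 12460 of the genes tested. Only the hns libraries did so in 306 genes, of which 15 passed the threshold, and only the BW25113 libraries did so in 57, of which 8 passed. The second-highest wild-type value lay between 0.9 and 1 FPKM for 235 genes just outside the filter and between 1 and 1.1 FPKM for 201 genes just inside it.

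Genes of heme transport and signalling were lower on hns food, and they gave the largest fall in wild type among genes not at 0. The list held 9 names, of which 7 were tested, and 6 of the 7 fell (85.7%, against 0.274% of all genes) with none higher. The list's median log2 change was -2.21, and in all 7 the hns libraries lay below the BW25113 libraries (30.0% of all genes did so). In whole worms, fewer cells of a type and less RNA per cell cannot be told apart.

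The carrier gene hrg-3, whose small secreted product delivers heme from the intestine to other tissues, had 501 and 486 FPKM in the BW25113 libraries but only 29.8 and 29.1 FPKM in the hns libraries. Replicates lay within a few percent of each other and the groups were far apart. Its log2 fold change was -4.02 ± 0.08 (SE, limma adjusted p = 5.78e-06). The importer gene hrg-1, a heme permease of endolysosomal membranes, had 225 and 190 FPKM on BW25113 food against 39.9 and 41.8 FPKM on hns food. For hrg-4, the permease of the intestinal apical membrane, the values were 181 and 195 FPKM against 35.7 and 44.05 FPKM. The 2 permease genes thus fell by close amounts, with log2 changes of -2.31 ± 0.12 and -2.21 ± 0.16 (limma adjusted p = 0.000513 and 0.0025).

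The exporter gene mrp-5, which moves heme out of the intestine, fell less, from 61.9 and 59.3 FPKM to 27.2 and 30.4 FPKM, a log2 change of -1.05 ± 0.08 (limma adjusted p = 0.00439). The hypodermal gene hrg-2 was scarce throughout, at 9.35 and 6.65 FPKM on BW25113 food and 0.761 and 1.60 FPKM on hns food (-2.06 ± 0.24, limma adjusted p = 0.0233). It passed in 13 of the 20 alternatives in which it was tested, and in 1 of the 4 that left out a wild-type library. The gene asp-10, whose protease-like product is also described as HRG-7, a signal between intestine and neurons, had 680 and 681 FPKM against 95.3 and 87.1 FPKM (-2.89 ± 0.07, limma adjusted p = 1.12e-05). The exception was hrg-6, a paralog of the permeases, at 9.98 and 9.34 FPKM against 7.75 and 8.18 FPKM (-0.25 ± 0.25, limma adjusted p = 0.592). Another paralog, hrg-5, was too low to be tested, at 0.539 to 1.52 FPKM.

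Iron and other metals gave no such pattern. None of 16 tested genes for iron and metal handling passed, and their median log2 change was 0.09, with 9 above and 7 below 0. The heavy ferritin gene ftn-1 stood at 1.996 and 2.19 FPKM on BW25113 food and 2.19 and 1.27 FPKM on hns food, which overlap (-0.20 ± 0.33, limma adjusted p = 0.743). The second ferritin gene, ftn-2, had 739 and 759 FPKM against 603 and 616 FPKM (limma adjusted p = 0.274), lower in both hns libraries without passing.

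**Figure D1:**
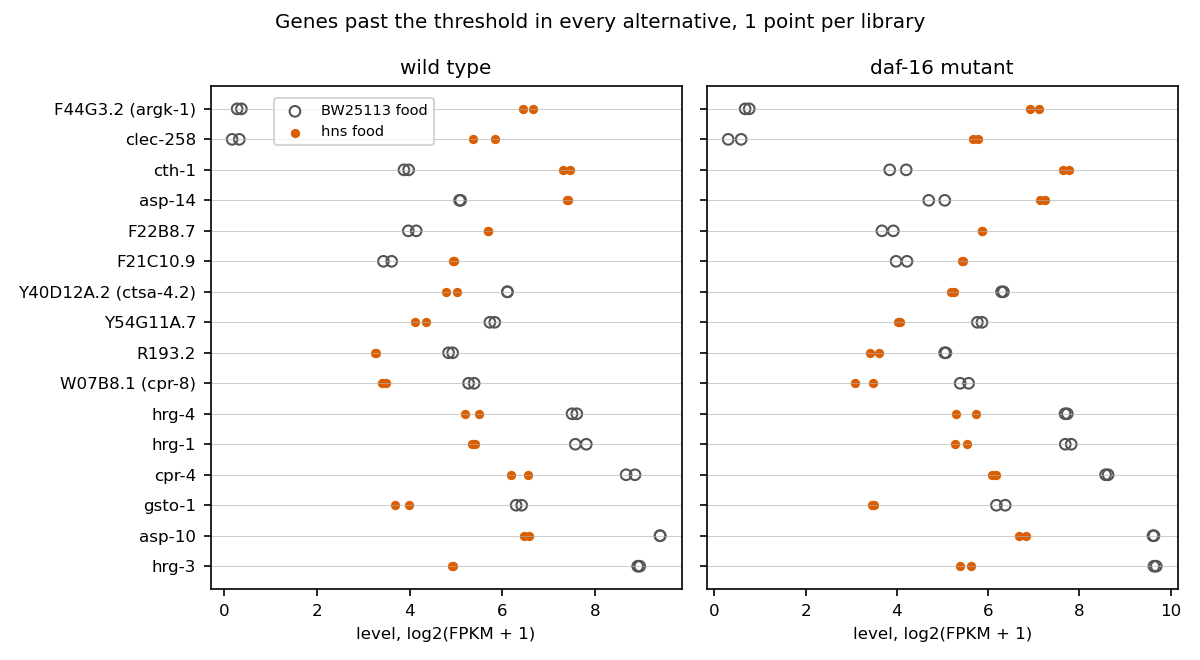
Levels in log2(FPKM + 1) of the 16 genes that passed the threshold in wild type under all 21 alternative analyses, with open circles for the 2 BW25113 libraries and filled circles for the 2 hns libraries of each genotype. In both genotypes the foods are separated for all 16 genes, from hrg-3 at the bottom, lower on hns food, to F44G3.2 at the top, higher on hns food.

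Secreted and lysosomal proteases formed the other group with large falls. Of 11 tested genes for cathepsin B and L proteases 3 fell (27.3%, against 0.274% of all genes) and none rose. The cathepsin B-like gene cpr-4 went from 467 and 409 FPKM to 93.8 and 71.9 FPKM (log2 -2.40 ± 0.13, limma adjusted p = 0.000693). The cathepsin B-like gene cpr-5 went from 286 and 314 FPKM to 77.9 and 55.3 FPKM (log2 -2.17 ± 0.22, limma adjusted p = 0.0123). The call of cpr-5 held in 18 of 21 alternatives. The third, W07B8.1, now named cpr-8, went from 37.7 and 41.1 FPKM to 10.3 and 9.56 FPKM (-1.89 ± 0.15, adjusted p = 0.00391 in limma). It is the neighbour of cpr-5 among the tested genes, and how reads shared by these related copies were counted is not stated. The abundant members of the family moved far less, cpr-6 from 2210 and 2347 FPKM to 1779 and 1859 FPKM and cpl-1 from 1658 and 1743 FPKM to 1313 and 1563 FPKM, neither past the threshold (limma adjusted p = 0.127 and 0.299).

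A pair of serine carboxypeptidase genes of the cathepsin A type, chosen after their values were seen, fell as well. Y40D12A.2 (ctsa-4.2) stood at 68.1 and 68.3 FPKM on BW25113 food and 31.6 and 26.5 FPKM on hns food, and K10B2.2 (ctsa-4.1) at 61.2 and 53.3 FPKM against 24.9 and 20.0 FPKM (limma adjusted p = 0.00343 and 0.0101).

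Aspartic proteases split. Among 12 tested genes asp-10 fell and asp-14 rose (together 16.7%, against 1.23% of all genes called). For asp-14 the values were 32.8 and 33.4 FPKM on BW25113 food and 169 and 171 FPKM on hns food. The log2 change of asp-14 was 2.32 ± 0.12 (limma adjusted p = 0.000445). The gene asp-1, expressed in the intestine, had 535 and 554 FPKM against 847 and 892 FPKM without passing (0.67, limma adjusted p = 0.0923). The list's median was 0.13.

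Sulfur metabolism changed at single genes. Of 14 tested genes for transsulfuration and cysteine only cth-1 passed (7.14%, against 1.23% of all genes). This gene encodes cystathionine gamma-lyase, which makes cysteine from cystathionine. It had 13.7 and 14.8 FPKM on BW25113 food and 157 and 174 FPKM on hns food, a log2 change of 3.45 ± 0.13 (limma adjusted p = 9.71e-05). Its paralog cth-2 stood at 222 and 256 FPKM against 215 and 231 FPKM, overlapping (-0.10 ± 0.09, limma adjusted p = 0.568). The upstream enzyme gene cbs-1 had 18.7 and 16.53 FPKM against 27.97 and 22.2 FPKM, higher in both hns libraries without passing (limma adjusted p = 0.156). The other 11 ranged from -0.09 to 0.43 on the log2 scale.

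The gene msra-1 encodes a methionine sulfoxide reductase, which repairs oxidized methionine. It was the 1 gene that fell among 20 tested for the methionine cycle and phosphatidylcholine (5.0%, against 0.274% of all genes). Its values were 420 and 423 FPKM against 108 and 148 FPKM (-1.73 ± 0.18, limma adjusted p = 0.014). Among glutathione transferases gsto-1, of the omega class, fell from 77.9 and 84.7 FPKM to 14.7 and 11.9 FPKM (-2.53 ± 0.12, adjusted p = 0.000367 in limma). By contrast gst-38 rose from 5.42 and 5.402 FPKM to 14.4 and 17.5 FPKM (1.40 ± 0.15, adjusted p = 0.0188 in limma). These were the only calls among 39 tested glutathione transferase genes (5.13%, against 1.23% of all genes), whose median was 0.22.

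The largest rises among genes not at 0 included genes nearly silent on BW25113 food. F44G3.2, clec-258 and str-7, described next, were under 1 FPKM in both BW25113 libraries. They passed the filter only through the hns libraries, in which they were high, so their wild-type tests are not independent of that choice. F44G3.2, now named argk-1, encodes an arginine kinase, which buffers ATP with phosphoarginine. It had 0.209 and 0.289 FPKM on BW25113 food and 100 and 85.996 FPKM on hns food (6.23 ± 0.12, limma adjusted p = 5.78e-06). The other 4 tested arginine kinase genes had log2 changes between -0.20 and -0.02 and none passed, so the family's median was -0.04. The C-type lectin gene clec-258 had 0.250 and 0.122 FPKM on BW25113 food against 56.5 and 40.5 FPKM on hns food (5.37 ± 0.19, limma adjusted p = 7.46e-05). A gene of the chemoreceptor class, str-7, had 0.0463 and 0.0913 FPKM against 7.41 and 7.48 FPKM (2.98 ± 0.20, limma adjusted p = 0.00225).

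Of these genes F22B8.7, str-7, cth-1 and argk-1 are consecutive tested genes on chromosome V in the WBcel235 reference order, which was used for order only because the files use another build. This adjacency was noticed after the values were seen. F22B8.7, of which no role is stated here, had 14.7 and 16.7 FPKM on BW25113 food and 50.9 and 50.5 FPKM on hns food (1.63 ± 0.11, limma adjusted p = 0.00169). All 4 rose, and all 4 had non-overlapping groups in both genotypes. In the mutant their log2 changes were 2.07, 3.49, 3.67 and 6.30 in the same order (limma adjusted p = 0.000676, 0.00121, 0.000111 and 6.95e-06).

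The tested genes next to this stretch did not pass. On one side F14H3.12 had 12.34 and 11.3 FPKM against 11.8 and 15.6 FPKM (0.18, limma adjusted p = 0.559), and on the other skr-3 had 70.2 and 56.6 FPKM against 96.2 and 64.5 FPKM (0.32, limma adjusted p = 0.438). Of 13587 pairs of neighbouring tested genes, 7 (0.0515%) were called in the same direction, and 3 of the 7 lie in this stretch. No other stretch was longer than 2 genes. The reference puts str-7 on the reverse strand and the other 3 on the forward strand. The handling of strand is not given in the sources used here, so reads of str-7 and of its neighbours cannot be told apart if transcription ran through.

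**Figure D2:**
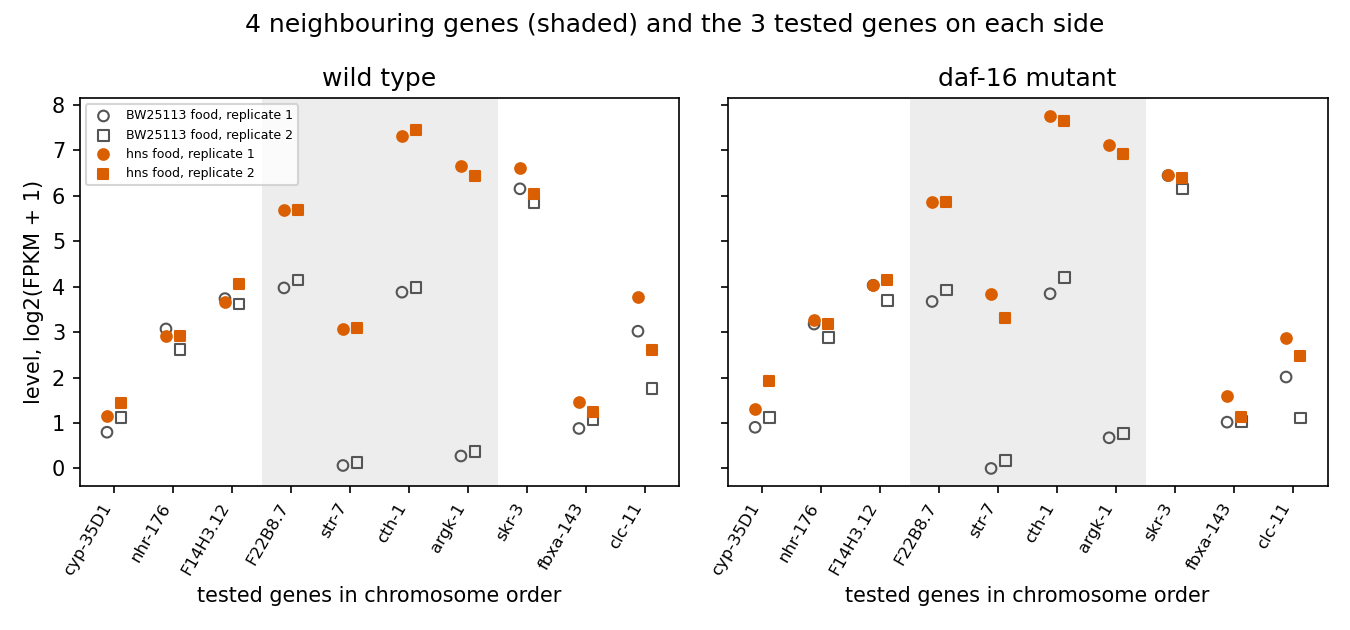
Levels in log2(FPKM + 1) per library of F22B8.7, str-7, cth-1 and argk-1 (shaded) and of 3 tested genes on each side, in chromosome order, for wild type and daf-16 mutants. The 4 shaded genes are higher in both hns libraries of each genotype, while none of the 6 flanking genes passed the threshold in wild type.

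Other genes among the 15 largest rises were H20E11.2, F17B5.8, C35A5.11, C02E7.6 and C44H4.10, of which no role is stated here. H20E11.2 rose from 0.733 and 0.596 FPKM to 12.4 and 7.15 FPKM (2.65 ± 0.26, adjusted p = 0.0123 in limma), and its neighbour H20E11.3 from 10.7 and 9.56 FPKM to 25.3 and 20.3 FPKM (1.09 ± 0.16, adjusted p = 0.0403 in limma). H20E11.2, under 1 FPKM in both BW25113 libraries, passed the filter only through the hns libraries. Of 21 alternatives H20E11.2 passed in 18 and H20E11.3 in only 8. C02E7.6 rose from 22.2 and 11.3 FPKM to 94.97 and 109 FPKM (2.60 ± 0.41, adjusted p = 0.0452 in limma) and C44H4.10 from 0.936 and 1.74 FPKM to 11.17 and 10.05 FPKM (2.33 ± 0.22, adjusted p = 0.00942 in limma). C02E7.6 passed in 6 of 21 alternatives and in none of those without a wild-type library, and C44H4.10 in 17 of 20. In the mutant these last 2 had log2 changes of 0.32 and -0.11, and the difference between genotypes did not pass for either.

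Genes of propionate breakdown were slightly lower. The propionate shunt degrades propionate without vitamin B12, and its transcripts are known to fall when B12 is plentiful. All 15 tested genes of the shunt and the B12 route had log2 changes below 0, where 47.9% of all genes were above 0. Only 2 fell (13.3%, against 0.274% of all genes) and the median was -0.16. A median of this size was not particular to the list, being -0.17 for germline markers and -0.12 for central carbon metabolism. Several members barely moved. The gene alh-8 had 353 FPKM in both BW25113 libraries against 308 and 347 FPKM (-0.11, limma adjusted p = 0.485). The log2 changes of pcca-1, pccb-1 and mce-1 were -0.03, -0.02 and -0.03. The first shunt enzyme gene, acdh-1, had 1810 and 1884 FPKM on BW25113 food and 1132 and 1230 FPKM on hns food (-0.65 ± 0.08, limma adjusted p = 0.0259). The gene Y38F1A.6, now hphd-1, another shunt enzyme, had 309 and 293 FPKM against 183 and 209 FPKM (-0.62 ± 0.08, limma adjusted p = 0.0259). Neither kept its call without any 1 of the wild-type libraries. The related acyl-CoA dehydrogenase gene acdh-2 fell from 48.1 and 56.9 FPKM to 9.21 and 15.9 FPKM (-2.02 ± 0.31, adjusted p = 0.0449 in limma), a call that 8 of 21 alternatives kept and none of the 4 without a wild-type library.

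Infection-response genes held 1 call. Of 26 tested, 20 had log2 changes above 0 and 14 had both hns libraries above both BW25113 libraries (25.5% of all genes did). Only F35E12.5, now irg-5, rose (3.85%, against 0.959% of all genes). It went from 35.3 and 44.4 FPKM to 105 and 107 FPKM (1.40 ± 0.15, adjusted p = 0.0186 in limma), a call kept in 16 of 21 alternatives. The gene T24B8.5, a reporter of the PMK-1 pathway, had 165 and 180 FPKM against 465 and 401 FPKM without passing (1.32 ± 0.38, limma adjusted p = 0.17), and irg-3 had 10.97 and 13.3 FPKM against 27.3 and 28.6 FPKM (limma adjusted p = 0.0947). The list's median was 0.32 in wild type, close to the 0.31 found in the mutant.

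Lysozymes pointed both ways. The lysozyme gene lys-7 rose from 69.8 and 90.1 FPKM to 178 and 181 FPKM (1.17 ± 0.15, adjusted p = 0.0259 in limma). In the opposite direction lys-4 had 338 and 297 FPKM against 192 and 130 FPKM without passing (limma adjusted p = 0.0735). Of 73 antimicrobial peptide genes 1 rose, spp-13 (1.37%, near the 0.959% of all genes). Of 94 C-type lectin genes 1 rose, clec-258, and 1 fell, clec-47 (together 2.13%, against 1.23% of all genes called). The values of clec-47 went from 22.3 and 23.7 FPKM to 4.19 and 3.64 FPKM (-2.29 ± 0.31, adjusted p = 0.0301 in limma).

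Among 47 cytochrome P450 genes cyp-35C1 and cyp-37B1 rose (4.26%, against 0.959% of all genes). Their log2 changes were 0.72 and 1.33 (limma adjusted p = 0.0335 and 0.0401). Among 50 UDP-glucuronosyltransferase genes none passed. The medians of the lectin, P450 and UDP-glucuronosyltransferase lists, 0.16, 0.16 and 0.13, became -0.02, -0.06 and -0.10 after quantile normalization, so they have no stable direction. The calls of spp-13, clec-47, gst-38, cyp-35C1 and cyp-37B1 were each lost without any 1 of the wild-type libraries.

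Of 27 tested genes used as readouts of DAF-16, 3 passed, where 0.959% of all genes were higher. These were pud-3, named for higher protein in daf-2 mutants, the catalase gene ctl-2 and lys-7, all higher. The values of pud-3 were 621 and 895 FPKM against 1759 and 1493 FPKM (1.12 ± 0.17, limma adjusted p = 0.043). Its near relative pud-4 had 389 and 493 FPKM against 1164 and 846 FPKM (1.18 ± 0.20, limma adjusted p = 0.0548), and reads may be split between these copies. ctl-2 had 18.5 and 21.5 FPKM against 33.4 and 37.6 FPKM (0.80 ± 0.11, limma adjusted p = 0.035). Of 21 alternatives pud-3 passed in 9, ctl-2 in 10 and lys-7 in 16, and none of them passed in more than 1 of the 4 without a wild-type library. In the daf-16(mgDf50) mutants pud-3 changed by 1.73, ctl-2 by 0.83 and lys-7 by 0.75 (limma adjusted p = 0.0161, 0.0573 and 0.212).

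The superoxide dismutase gene sod-3, a widely used DAF-16 target, showed no separation, with 3.56 and 4.41 FPKM on BW25113 food and 3.80 in both hns libraries (-0.05 ± 0.19, limma adjusted p = 0.893). The metallothionein gene mtl-1 had 44.1 and 30.6 FPKM against 120 and 31.3 FPKM, so only hns replicate 1 was high (limma adjusted p = 0.566). dod-3 had 18.1 and 20.7 FPKM against 25.2 and 27.98 FPKM (limma adjusted p = 0.558). None of 20 insulin-like signalling genes passed, daf-2 and daf-16 among them, and none of 29 insulin-like peptide genes.

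Stress-response genes gave no call among 9 cytosolic heat shock genes and 19 genes of endoplasmic reticulum and mitochondrial stress. Outside these lists the small heat shock gene hsp-12.1, named after its values were seen, rose from 30.5 and 32.3 FPKM to 63.4 and 69.4 FPKM (1.06 ± 0.13, adjusted p = 0.0259 in limma), in 14 of 21 alternatives and in none without a wild-type library. The heat shock gene hsp-16.2 had 0.824 and 1.83 FPKM against 3.07 and 2.43 FPKM (limma adjusted p = 0.235). The mitochondrial chaperone gene hsp-6 had 360 and 373 FPKM against 325 and 320 FPKM (limma adjusted p = 0.276), and the endoplasmic reticulum chaperone gene hsp-4 had 247 and 257 FPKM against 240 and 243 FPKM (limma adjusted p = 0.734). gst-4, a readout of SKN-1, had 71.7 and 80.1 FPKM against 58.6 and 65.3 FPKM (limma adjusted p = 0.244). The desaturase gene fat-7 had 34.7 and 37.1 FPKM against 38.3 and 49.1 FPKM (limma adjusted p = 0.332).

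**Figure D3:**
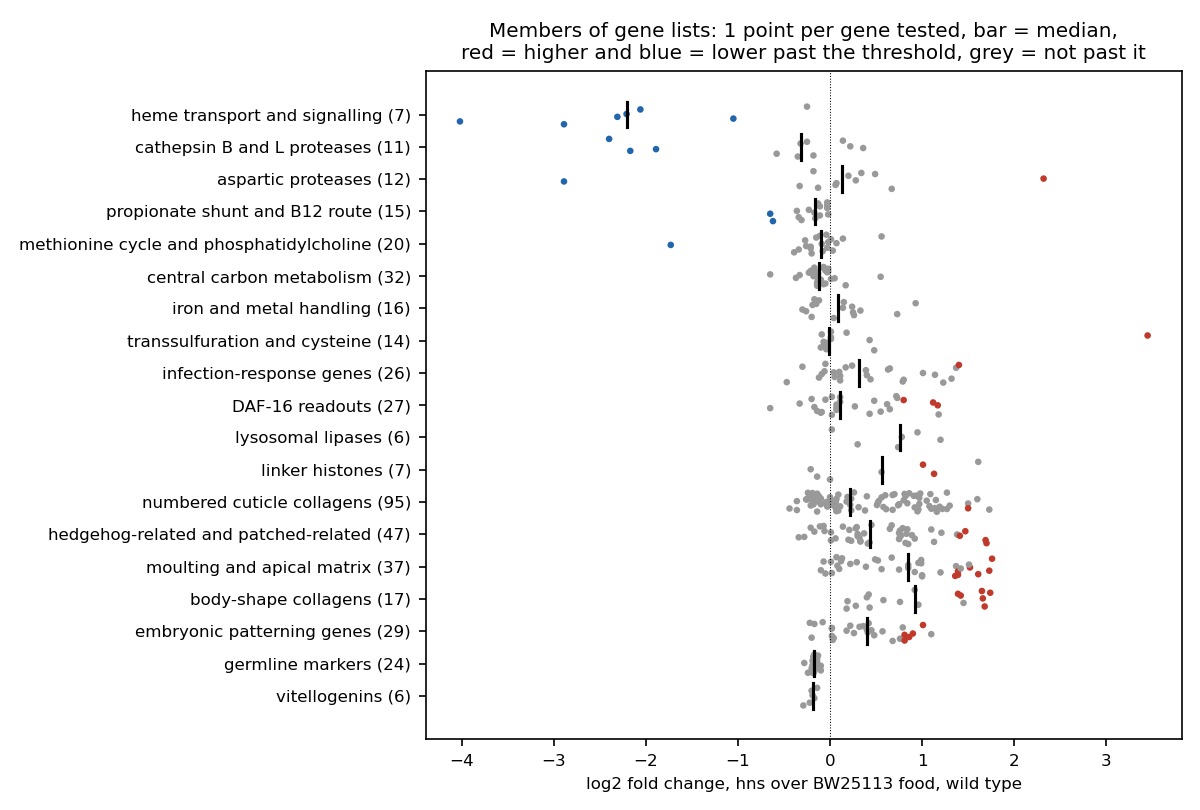
Log2 fold changes in wild type (hns over BW25113 food) of the tested members of 19 gene lists, 1 point per gene, with the number tested in parentheses, the list median as a bar and genes past the threshold in colour. Heme transport lies far to the left with a median of -2.21, and body-shape collagens and moulting and apical matrix genes lie to the right with medians of 0.92 and 0.85.

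Of the 124 higher genes not at 0, 18 belong to lists of the cuticle and the epidermis, and 15 of the 18 passed in none of the analyses that left out a wild-type library. The cuticle is the collagen coat that the hypodermis secretes before hatching and at each moult. Of 17 tested body-shape collagen genes, named for the shape mutants make, 6 rose (35.3%), against 0.959% of all genes. All 17 had log2 changes above 0 and the median was 0.92. Of 37 tested moulting and apical matrix genes 7 rose (18.9%), with a median of 0.85, and of 47 tested hedgehog-related and patched-related genes 4 rose (8.51%), with a median of 0.43.

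The collagen gene sqt-3 had 34.8 and 26.8 FPKM on BW25113 food and 95.05 and 105 FPKM on hns food (1.68 ± 0.18, limma adjusted p = 0.0169). Its partner in the same collagen network, dpy-17, had 59.1 and 52.9 FPKM against 165 and 190 FPKM (1.65 ± 0.19, limma adjusted p = 0.0194), and dpy-14 had 61.8 and 54.6 FPKM against 171 and 202 FPKM (1.66 ± 0.22, limma adjusted p = 0.0306). The furrow collagen gene dpy-7 had 7.23 and 7.93 FPKM against 30.9 and 24.8 FPKM (1.74 ± 0.26, limma adjusted p = 0.0403). In these 4 genes both hns libraries were high. Other collagens that did not pass were high in hns replicate 1 alone, such as sqt-1, with 0.895 and 0.931 FPKM on BW25113 food and 4.196 and 1.02 FPKM on hns food, and dpy-9, with 4.17 and 2.82 FPKM against 16.46 and 3.30 FPKM.

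Of the 37 moulting and apical matrix genes 34 lay above 0 and 3 below, the lowest at -0.10. In 29 of them both hns libraries lay above both BW25113 libraries (25.5% of all genes did so), and in 2 both lay below. The cuticlin genes cut-2 and cut-3 had 14.98 and 14.4 FPKM against 47.1 and 57.6 FPKM and 17.4 and 13.03 FPKM against 51.3 and 52.9 FPKM (log2 1.76 ± 0.17 and 1.73 ± 0.25, limma adjusted p = 0.0113 and 0.0357). The matrix genes noah-1 and noah-2, which attach the epidermis to the embryonic sheath, rose by 1.39 and 1.52, the lipocalin gene lpr-3 by 1.61 and the protease-inhibitor gene mlt-11 by 1.39 (limma adjusted p = 0.035, 0.0257, 0.0357 and 0.0378). Of the hedgehog-related genes wrt-10 went from 11.12 and 8.30 FPKM to 40.7 and 27.5 FPKM (1.70 ± 0.25, adjusted p = 0.0378 in limma) and grl-15 from 4.79 and 4.18 FPKM to 14.9 and 18.5 FPKM (1.69 ± 0.24, adjusted p = 0.0357 in limma). The chitinase gene C08B6.4, now cht-5, chosen after its values were seen, rose from 4.22 and 3.28 FPKM to 12.35 and 10.95 FPKM (1.42 ± 0.17, adjusted p = 0.0233 in limma). Of 95 tested numbered collagens, which include the adult cuticle's most abundant ones, only col-74 rose (1.05%, against 0.959% of all genes) and the median was 0.22. That median was 0.44 without hns replicate 1 and -0.03 without hns replicate 2.

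Some transcription factors of the embryo were higher as well. Of 29 tested embryonic patterning genes 5 rose (17.2%, against 0.959% of all genes) and the median was 0.40, or 0.16 after quantile normalization. The FoxA gene pha-4, which specifies the pharynx, had 6.36 and 5.72 FPKM against 11.15 and 11.54 FPKM, and the MyoD gene hlh-1, for body muscle, 3.93 and 3.89 FPKM against 7.98 and 7.90 FPKM (limma adjusted p = 0.0401 and 0.0487). The Distal-less gene ceh-43 had 12.4 and 12.35 FPKM against 22.5 and 25.6 FPKM and the Hunchback gene hbl-1 had 5.35 and 5.602 FPKM against 11.54 and 12.5 FPKM (limma adjusted p = 0.0297 and 0.0262). Of 21 alternatives pha-4 passed in 8, hlh-1 in 7 and ceh-43 and hbl-1 in 13 each, none of them without a wild-type library. Genes of the earliest zygotic stages in the same list did not separate, end-1 having 1.83 and 2.29 FPKM against 2.19 and 2.03 FPKM and pes-10 9.35 and 9.34 FPKM against 8.73 and 10.4 FPKM.

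Linker histone genes, whose products bind DNA between nucleosomes, split. Of 7 tested, 2 rose (28.6%, against 0.959% of all genes). his-24 had 70.9 and 70.2 FPKM against 144 and 169 FPKM (1.13 ± 0.10, limma adjusted p = 0.00744). hil-3 had 25.9 and 22.6 FPKM against 49.5 and 49.8 FPKM (1.01 ± 0.15, limma adjusted p = 0.0378). Of 21 alternatives his-24 passed in 19 and hil-3 in only 10. hil-7 had 91.2 and 52.8 FPKM against 215 and 214 FPKM without passing (limma adjusted p = 0.0751). The abundant hil-4, at 330 and 328 FPKM against 294 and 302 FPKM, and hil-5, at 285 and 261 FPKM against 233 and 239 FPKM, were lower in both hns libraries, neither past the threshold.

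Markers of other cell types are given beside these groups because the libraries are whole worms. Of 14 tested hypodermis markers 5 rose (35.7%, against 0.959% of all genes). These were dpy-7, sqt-3, wrt-1, wrt-2 and wrt-10, all of them also members of the lists above. Summed over that list, FPKM were 1200 and 1380 on BW25113 food and 1230 and 1840 on hns food, which overlap because col-19, a marker of the adult cuticle, dominates the sum, at 864 and 1124 FPKM against 665 and 1420 FPKM. For body-shape collagens the sums were 206 and 183 against 588 and 608, and for moulting and apical matrix genes 387 and 372 against 615 and 575, without overlap. Markers of the pharynx (1 of 11 higher, pha-4) summed to 255 and 173 against 402 and 245, and those of neurons (0 of 21) to 834 and 746 against 938 and 782, with hns replicate 1 the highest in both. None of 17 intestine markers passed, with a median of 0.05. Of 20 muscle markers 1 passed, hlh-1 (5.0%, against 0.959% of all genes), and the median was 0.17. In 12 of the 20 both hns libraries lay above both BW25113 libraries (25.5% of all genes did so), and in the other 8 the groups overlapped. Both hlh-1 and pha-4 are also counted among the embryonic patterning genes. Which cells gave the higher cuticle transcripts was not tested.

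**Figure D4:**
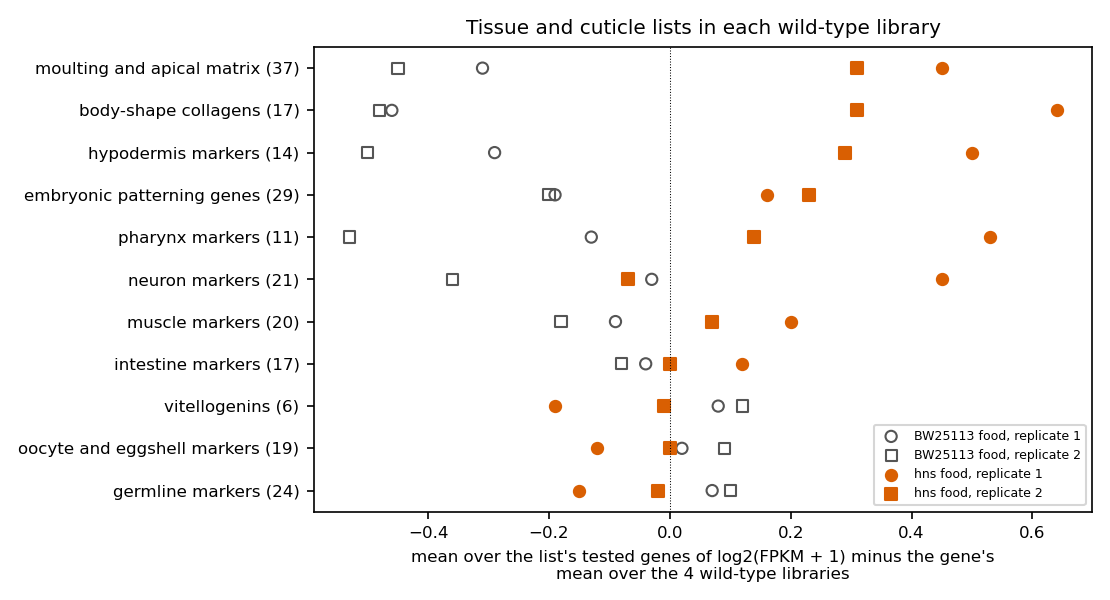
Mean of log2(FPKM + 1) over each list's tested genes in each wild-type library, after subtracting each gene's mean over the 4 libraries. For body-shape collagens the hns libraries stand at 0.64 and 0.31 and the BW25113 libraries at -0.46 and -0.48, while for neuron markers hns replicate 2, at -0.07, lies below BW25113 replicate 1, at -0.03.

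These higher calls were less stable than the lower ones. The 5 lists of numbered and body-shape collagens, moulting and apical matrix, hedgehog-related and hypodermis genes held 18 called genes, with log2 changes of 1.36 to 1.76, and 0 of the 18 passed in every analysis that left out 1 wild-type library. Over the 154 calls not at 0, 7 of 124 higher and 10 of 30 lower genes passed whichever of the wild-type libraries was left out.

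Germline and yolk genes lay slightly lower without any call. None of 24 tested germline markers passed, but all 24 had log2 changes below 0, 23 had both hns libraries below both BW25113 libraries (against 30.0% of all genes), and the median was -0.17. The oocyte and eggshell list had 18 of 19 genes with both hns libraries below and a median of -0.18. All 6 vitellogenin genes did so, with a median of -0.19. In the mutant the germline, oocyte and vitellogenin medians were closer to 0, at -0.07, -0.05 and -0.04. Relative to each gene's mean over the wild-type libraries, vitellogenins averaged -0.19 in hns replicate 1 and -0.01 in hns replicate 2. The yolk gene vit-2 had 2857 and 2940 FPKM against 2407 and 2767 FPKM (limma adjusted p = 0.435), and pos-1, a maternal RNA, 1273 and 1303 FPKM against 1092 and 1143 FPKM (limma adjusted p = 0.342). Of 32 central carbon metabolism genes 4 lay above 0 and none passed, with a median of -0.12. Under the other scalings the germline median ranged from -0.14 to -0.11. The 80 ribosomal protein genes had a median of -0.01 with no call.

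Several large families held few calls or none. Of 28 chemoreceptor genes that could be tested, out of 1335 in the table, only str-7 rose (3.57%, against 0.959% of all genes). It passed the filter only through the hns libraries. None of 176 nuclear hormone receptor genes, 70 neuropeptide genes, 99 F-box A genes, 49 transthyretin-like genes, 20 astacin protease genes, 21 fatty acid desaturase and elongase genes or 30 genes of the proton pump and lysosome passed. Neuropeptide genes lay mostly on the higher side, with 59 of 70 above 0 and a median of 0.23, but both hns libraries lay above both BW25113 libraries in 15 of them, where 25.5% of all genes did so. All 6 tested lysosomal lipase genes, which release fatty acids from stored fat, were above 0 with a median of 0.76, none of them past the threshold. Relative to each gene's mean over the wild-type libraries, these 6 averaged 0.55 in hns replicate 1 but 0.11 in hns replicate 2. In BW25113 replicates 1 and 2 they averaged -0.23 and -0.44. Of 43 sperm markers none passed, and their median, -0.17, was 0.06 without hns replicate 1. The list of 8 coelomocyte and uterus markers and that of 19 antioxidant enzymes had medians of 0.20 and -0.10, with ctl-2 the single call.

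The same change of food in daf-16 mutants uses no library of the wild-type comparison, though the fit shares the estimate of spread. In the mutants 48 genes passed (0.346% of those tested), 24 higher and 24 lower (0.173% each). Of them 37 also passed in wild type in the same direction, 77.1% of the mutant calls and 21.6% of the wild-type calls. The 30 lower genes not at 0 were all below 0 in the mutant as well, and 21 of them fell there too, the wild-type median being -1.32 and the mutant median -1.33. Of the 124 higher genes 121 were above 0 in the mutant, but 16 rose there, and the median, 1.34 in wild type, was 0.44 there. These sets were picked by their wild-type calls, so their wild-type and mutant medians do not compare sizes evenly.

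All 16 genes that passed in every alternative passed in the mutant too, and their log2 changes in the genotypes differed by at most 0.44. For hrg-3 the mutant libraries had 822 and 794 FPKM on BW25113 food against 48.0 and 40.9 FPKM on hns food. For gsto-1 they stood at 71.6 and 82.1 FPKM against 10.3 and 9.96 FPKM. Genes F21C10.9, R193.2 and Y54G11A.7, in the set by this criterion alone and with no role stated here, changed by 1.42, -1.62 and -1.54 in wild type and by 1.34, -1.55 and -1.76 in the mutant.

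The cuticle and epidermal calls had smaller changes in the mutant, without a difference between genotypes that passed. They were picked by their wild-type calls, so the sizes are not evenly compared. The 18 genes had log2 changes of 0.20 to 0.82 in the mutant, with a median of 0.54 against 1.56 in wild type. There 0 of them passed, although in 16 both hns libraries lay above both BW25113 libraries (19.5% of all genes did in the mutant). For each of the 18 the limma adjusted p for the difference between genotypes was 0.999. Over all 17 tested body-shape collagens the mutant median was only 0.06, with 9 above and 8 below 0. The mutant medians of the numbered collagen, hedgehog-related, moulting and hypodermis lists were 0.12, 0.22, 0.30 and 0.31. The level on BW25113 food was not the same in the genotypes: body-shape collagens summed to 206 and 183 FPKM in wild type and to 445 and 345 FPKM in the mutant, and on hns food to 588 and 608 FPKM in wild type and to 669 and 480 FPKM in the mutant. For sqt-3 the mutant had 67.4 and 51.7 FPKM on BW25113 food and 100 and 81.6 FPKM on hns food.

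**Figure D5:**
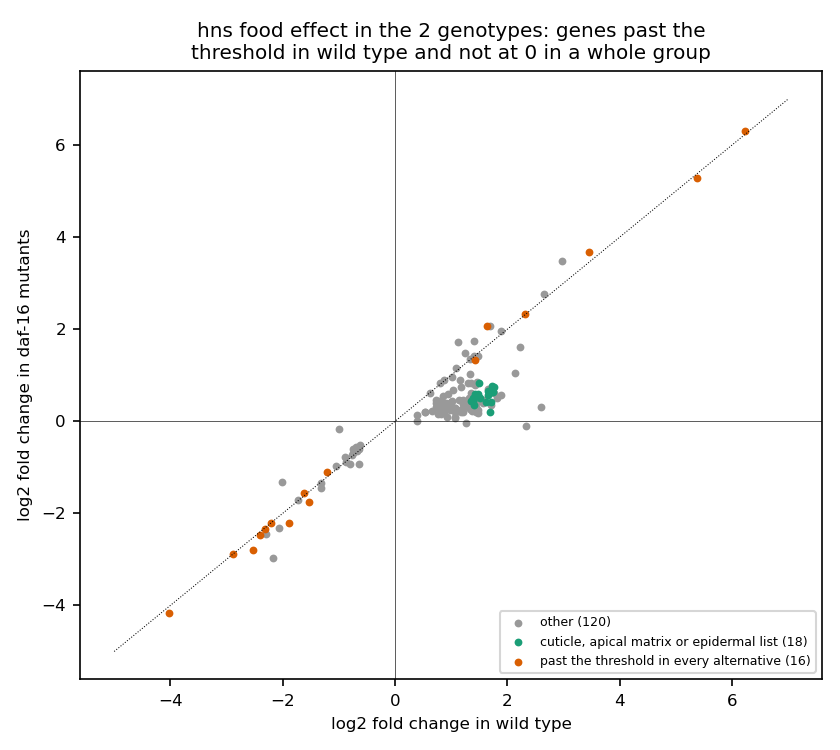
Log2 fold change on hns food in wild type against that in daf-16 mutants for the 154 genes past the threshold in wild type and not at 0 in a whole group, with the line of equal change dotted. The 16 genes that passed in every alternative lie along the line. The 18 cuticle, apical matrix and epidermal genes lie below it, between 0.20 and 0.82 in the mutant. Both sets were picked by wild-type calls, so distance from the line is not an even measure of a difference between genotypes.

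Across all genes the food effect differed between the genotypes for 6 (0.0433%), 2 in favour of wild type (0.0144%) and 4 against it (0.0288%), and 511 had an unadjusted p under 0.05. All 6 were transcripts shorter than 300 nt and listed at 0 in both libraries of a wild-type group. With transcripts under 300 nt left out, or genes at 0 in any library left out, limma called 0 genes for this difference, with 499 and 504 genes at an unadjusted p under 0.05 in the same order. Of the 17 calls at 0 in a whole wild-type group, 12 had transcripts under 300 nt and 2 could not be matched to the reference. The 3 longer ones were C16D9.9, with 0 in both BW25113 libraries and 5.84 and 5.66 FPKM in the hns libraries, F52D2.5, listed at 0 against 3.09 and 3.003 FPKM, and F55H12.7, at 2.298 and 4.18 FPKM against 0. In the mutant C16D9.9 was detected on both foods, at 3.82 and 11.3 FPKM and at 12.25 and 11.3 FPKM. Others at 0 on BW25113 food in wild type were F46A9.12, at 149 and 48.3 FPKM on hns food, and F46F11.11, at 5.45 and 10.5 FPKM, while Y37E3.22 had 40.7 and 8.92 FPKM on BW25113 food and was listed at 0 on hns food.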

How the data were processed

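Total RNA was sequenced from whole worms in 8 libraries, and the values used were the FPKM table that the authors deposited. Per the submitters' processing notes the tools were Cufflinks 2.2.1 and TopHat2 2.0.11, with build ce10. Annotation and strand handling: not given in the sources used here. FPKM divide fragment counts by transcript length and library size, so short transcripts vary most and an exact 0 can be a failed estimate. Steps in low FPKM implied about 20500000 to 22400000 fragments per library. At that depth 51.1% to 53.9% of low values came within 0.15 fragments of a whole number (30% by chance), too loose for a count test, so depth is approximate.

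The test scale was log2(FPKM + 1), whose pseudocount of 1 understates changes of low genes. limma 3.58.1 in R 4.3.3 fitted 1 mean per group over all 8 libraries with a mean-variance trend (4 residual and 2.54 prior degrees of freedom). Contrasts were the food effect in each genotype and the difference between these effects. P-values were two-sided and adjusted by Benjamini-Hochberg over 13866 genes, with a threshold of 0.05. The fit was tested on simulated data. ± values are SE from the fit. Of the tested genes 13595 (98.0%) matched the WBcel235 reference, used for current names, lengths and gene order.

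A rule set the genes to describe. It took the 15 largest changes in each direction past the threshold with at least 5 FPKM, and up to 4 called members per list. It also took all members of 5 short lists (heme, arginine kinases, transsulfuration, propionate, linker histones), 11 readout genes and genes called for the difference. Not all of these are printed singly. Some arginine kinase, transsulfuration, propionate and linker histone genes appear only in counts, ranges or medians, and the rule did not set which. Other genes named, most of them list members that did not pass or genes at the chromosome V stretch, were chosen after their values were seen. The genes tested, the 49 lists and this rule were chosen with earlier results of these data known, and so are not independent evidence of direction.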

Additional observations from a re-analysis of the deposited data

Results flagged for a closer look

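The 6 transcripts below were singled out because the test of the difference between genotypes passed for each (food effect in wild type minus that in daf-16, log2 scale). All are under 300 nt and at 0 in a whole wild-type group, and their adjusted p ranged up to 0.019 in limma. The noncoding RNA C16D9.13 differed by 8.52 (adjusted p = 8.28e-06), being listed at 0 in 6 libraries and at 370 and 360 FPKM in wild type on hns food. The lincRNA linc-28 differed by 5.76 (adjusted p = 0.000133), at 54.03 and 52.6 FPKM on hns food in wild type and 0 elsewhere. The noncoding RNA F35E12.13 differed by -11.18 (adjusted p = 3.21e-06), with 53.8 and 45.6 FPKM on BW25113 food in wild type, 43.96 and 46.1 FPKM on hns food in the mutant, and 0 in the other 4 libraries. The snoRNA T23D8.11 differed by -7.80 (adjusted p = 0.000133), at 0 only in wild type on hns food and at 182 to 590 FPKM in the other 6 libraries. The short coding transcripts C17B7.14 and T09A12.8 differed by -3.98 and -2.97 (adjusted p = 0.00293 and 0.019), both above 0 only in wild type on BW25113 food. Whether these zeros are failed estimates was not tested.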

How the results depend on the processing

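Against 171 genes past the threshold in wild type (133 higher, 38 lower), the total was 72 (44 higher) with only the wild-type libraries fitted, 60 (31 higher) with no filter, and 111 (72 higher) with quantile normalization. After seeing the data, genes at 0 in any library were left out, which gave 300 (259 higher), or transcripts shorter than 300 nt, which gave 315 (274 higher). Median-ratio scaling gave 88 higher genes and robust estimation 206. Leaving out 1 library gave 36 to 137 genes in wild type, 19 to 102 higher and 17 to 35 lower, with 36 to 47 when the library was a wild-type one. It gave 24 to 46 genes in the mutant (48 with all libraries) and 7 to 15 for the difference between genotypes (6 with all). That difference gave 31 genes with no filter, 3 at a mean of at least 5 FPKM, 14 with the filter over all 8 libraries, and 0 without genes at 0 or short transcripts. A replicate block gave 622 genes (534 higher, 88 lower). Same-numbered wild-type libraries deviated together (correlation 0.21, other group pairs 0.01 to 0.12), but the labels give only a number, so the pairing is no part of the design. No gene named in the text reversed its call, and of the 62 called genes named by rule 11 passed in every alternative. Of the 49 list medians 19 moved by more than the typical SE of their genes under at least 1 alternative, 11 of them under quantile normalization. The fit on wild-type libraries alone gives no mutant value. With 2 libraries a group and approximate depth, differences of low genes may not be detectable.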
